A study of Mus musculus with 28 samples.

Results

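The RNAs described here are the 200 most abundant piRNA-annotated RNAs of mouse blood, ranked by their mean level over all 28 small RNA libraries of the cohort. The count table lists 80668 RNAs in 10 classes, of which 49076 carry a piRNA identifier, and the rule took the 200 of these with the highest mean RPM, a count divided by 1 scaling number per library. Since they were chosen by their mean RPM over the same libraries, their abundance is a description and was not tested. All animals were female wildtype C57BL/6N mice, a common inbred strain, and no treatment is named for any of the 14. By age there were 3 mice at 2 months and 4 mice at 6, then 3 at 8, 2 at 12 and 2 at 18 months. Blood was drawn from the vena cava and kept apart for each mouse. Its plasma was cleared of cells, platelets and debris, and was then spun at ultracentrifugal speed into a pellet enriched in extracellular vesicles (EVs) and the EV-depleted fluid, whose labels read free circulating and which is called plasma below. Each mouse was taken to have given 1 library of each fraction. For replicates 2 and 3 at 2 months this is not certain, since their plasma labels carry the same joined code. At 12 and 18 months each group rests on 2 mice, so age comparisons have few old animals behind them.

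PIWI-interacting RNAs (piRNAs) are small RNAs somewhat longer than microRNAs, loaded onto PIWI proteins, which they guide to transposon transcripts. Their known site of action is mainly the germ line, where they keep transposons silent, and many mouse entries in sequence databases were collected from testis or oocytes. Such entries are assigned by sequence alone, and tRNAs, rRNAs, Y RNAs and other abundant non-coding RNAs are also known to be cleaved into fragments of similar length. A blood RNA matching a piRNA entry is therefore called piRNA-annotated here, since binding to a PIWI protein was not measured.

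The 200 RNAs together held 97.7% of the mean RPM of the piRNA class, and the level within the class was concentrated further at the top. The 2 highest, oocyte_piRNA978 and piR-515, held 23.9% of the class, and the 10 highest held 46.8%. Of all 49076 piRNA rows, 647 exceeded a mean of 1 RPM. Names of the form oocyte_piRNA, which by the name are entries from oocytes, were carried by 139 members (69.5%) against 4.44% of all piRNA rows, and the other 61 members have names of the form piR. Mean levels ran from 31.6 RPM to 18591 RPM with a median of 142. The values on either side of the limit differed little. The 3 members just inside it, piR-26102, oocyte_piRNA1268 and oocyte_piRNA476, had means of 31.8, 31.7 and 31.6 RPM, and the 3 RNAs just outside, oocyte_piRNA776, oocyte_piRNA1373 and piR-4034, had means of 29.4, 29.2 and 28.01 RPM. Ranking each fraction alone returned 192 of the 200 for EVs and 190 for plasma, with 182 in both.

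Total counts lay between 928651 and 23905651 per plasma library (median 8673147) and between 4764338 and 52753818 per EV library (median 12455662), of which the members took 72078 to 1939722 counts in plasma and 468115 to 3742583 in EVs. A single count was worth 0.0722 to 1.70 RPM. A count above 0 was found in all 28 libraries for 199 members. The remaining one, oocyte_piRNA2278, had 0 counts in 1 plasma library, replicate 1 at 12 months, where 3 counts would be 1.99 RPM. All 200 passed the filter on low values in each comparison below. Libraries of 3 mice stood apart. By mean correlation with the other libraries of their fraction, EV libraries of 6-month replicate 4 and 12-month replicate 2 lay at 0.781 and 0.768 and plasma libraries of 12-month replicates 1 and 2 at 0.855 and 0.790, against 0.809 to 0.887 (EVs) and 0.874 to 0.912 (plasma) for the other 11 mice. The pair oocyte_piRNA978 and piR-515, whose counts are nearly equal in the other 11 mice (ratio 1.00 to 1.05), also differed there, with a ratio of 1.33, 1.22 and 1.42 in the EVs of 6-month replicate 4 and both 12-month mice. Several results below are given with and without these mice.

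MicroRNAs known to be rich in particular cells gave a view of what each fraction could hold. The summed level of 3 red cell microRNAs had a median of 975 RPM in EVs and 1034 in plasma, and 2 platelet microRNAs summed to 89.6 and 95.5 RPM. For 2 liver microRNAs the medians were 57.0 and 37.0 RPM, and for 3 skeletal muscle microRNAs 2.39 and 2.36 RPM. The 6 microRNAs of the germ line, the known site of piRNAs, had a median sum of 1.62 RPM in EVs and 1.37 RPM in plasma. Nearly all of it was 1 microRNA, mmu-miR-202-5p, with 225 of 236 counts in EVs and 122 of 134 in plasma. Of these 6, 1 was at 0 in all EV libraries and 3 were at 0 in all plasma libraries. All mice were female, and the list was not restricted to microRNAs of the female germ line. Whether germ line RNA reached the blood was not tested. The part of these cells in the results below was not tested.

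To see what the members have in common beyond their annotation, each was set beside 3103 RNAs of other classes with a mean of at least 10 RPM, and the RNA whose log2(RPM + 1) followed it most closely over the 28 libraries was recorded. These correlations are descriptions. All points share libraries and scaling numbers, and with 3103 candidates a fairly high best value can be found for many RNAs. The closest RNA was a tRNA for 56 members, a circular RNA for 55, a long non-coding RNA for 32, an rRNA for 29, a microRNA for 16, an RNA of type misc_RNA, which holds Y RNAs, 7SL and 7SK, for 8, an snRNA for 3 and a snoRNA for 1. The classes differed in their number of candidates. Of the 3103, 1699 were circular RNAs, 670 long non-coding RNAs, 397 tRNAs and 120 snRNAs. A further 85 were rRNAs, 81 microRNAs, 26 snoRNAs and 25 misc_RNAs. At r of 0.95 or more 60 members remained, and 45 of them followed a tRNA, 7 an rRNA, 3 a circular RNA, 2 a long non-coding RNA, 2 a misc_RNA and 1 a microRNA. All 19 members at r of 0.99 or more followed a tRNA. Most tRNA partners remained tRNAs when the scale changed. With shares of counts in place of RPM 54 of the 56 kept a tRNA as their closest RNA, and within EVs or plasma alone 54 and 52 did, against 155, 129 and 124 of all 200 members that kept their class.

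Letters of 3 of these partner RNAs show what kind of RNA the members ran beside. They are given in full, 5′ to 3′ in DNA letters for the first 2, from GENCODE M21 on GRCm38, the assembly that the submitters' notes name as mm10. The first is n-R5s88, a 5S rRNA gene at chr9:102127888-102128005 on the plus strand, inside the gene Ephb1 on the opposite strand and outside its exons. The second is Rny1, the Y1 RNA that binds the protein Ro60, at chr6:47788069-47788180 on the minus strand. The last is the mature microRNA mmu-miR-6240 at chr5:114851973-114851998 on the plus strand, from RefSeq on GRCm38.p6, with its seed, bases 2 to 8, in capitals. Sequences of the piRNA entries and of the tRNAs were not used here.
n-R5s88: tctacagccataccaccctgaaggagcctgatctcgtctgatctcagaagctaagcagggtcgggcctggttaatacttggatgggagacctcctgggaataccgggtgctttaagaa
Rny1: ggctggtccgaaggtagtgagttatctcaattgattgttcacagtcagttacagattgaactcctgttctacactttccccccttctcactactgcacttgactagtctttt
mmu-miR-6240: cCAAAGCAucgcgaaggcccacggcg

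The closest match of all was between oocyte_piRNA3488 and tRNA-iMet-CAT-3-1, the initiator tRNA that starts protein synthesis, at r = 0.9999. The counts of oocyte_piRNA3488 were 89.0 to 97.7% of those of that tRNA in every library. It had 144, 308 and 1768 RPM in EVs and 243, 758 and 1978 RPM in plasma at the lowest, median and highest library. A further pair, oocyte_piRNA1710 and oocyte_piRNA2941, followed tRNA-Cys-GCA-24-1, a cysteine tRNA, at r = 0.9995 and 0.9989, with 85.1 to 100% and 80.9 to 100% of its counts. Among the 45 members at r of 0.95 or more with a tRNA, 8 followed a glycine tRNA of anticodon GCC, 8 a glutamate tRNA of anticodon CTC, 5 a glutamate tRNA of anticodon TTC, 5 a lysine tRNA of anticodon CTT, 5 the initiator tRNA and 4 a cysteine tRNA of anticodon GCA. A further 2 each followed alanine (CGC) and glutamine (TTG) tRNAs, and 6 followed 1 tRNA family each. Glycine-GCC and glutamate-CTC tRNAs thus had the most members.

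Of the 29 members closest to an rRNA, 26 had a 5S rRNA gene as partner, drawn from 12 of the 180 n-R5s genes listed. The 5S rRNA is a small RNA of the large ribosomal subunit. The n-R5s genes differed in level, with means over the 28 libraries of 53.9 RPM for n-R5s210 and 396 RPM for n-R5s211. Their sequences were not compared with each other, and whether the partner gene is the source of a member's reads was not tested. The members of rank 4 and 5, oocyte_piRNA1468 and piR-1330, followed n-R5s88 at r = 0.9858 and 0.9830. Here the counts were not alike. In the median library oocyte_piRNA1468 had 2159% and piR-1330 1691% of the counts of n-R5s88. Both piRNA-annotated rows therefore held far more reads than the gene they followed.

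Outside tRNAs and rRNAs, piR-1889 and piR-1686 ran close to a named small RNA at similar counts. piR-1889 followed Rny1 at r = 0.9707 with 52.9 to 75.3% of its counts, and piR-1686 followed mmu-miR-6240 at r = 0.9896 with 115 to 179%. For oocyte_piRNA2771 the closest RNA was Gm29825, a long non-coding RNA, at r = 0.9670 but with 822 to 7200.0% of its counts. The 2 most abundant members had no such partner. For oocyte_piRNA978 the best value was 0.8813 with the circular RNA mmu_circ_0010320, and for piR-515 it was 0.8922 with the long non-coding RNA Gm4065, both at levels far below their own. Rank 3, piR-1093, reached 0.7986 with the snRNA gene Gm24032, and piR-1076 reached 0.8101 with the snRNA gene Gm25682. oocyte_piRNA2725 was the only member whose closest RNA was a snoRNA, Gm22771 (r = 0.8402). piR-972 followed the microRNA mmu-miR-2137 (r = 0.9401), and oocyte_piRNA1622 and piR-20430 followed circular RNAs (r = 0.9520 and 0.9667). The sources do not say how reads matching both a piRNA entry and another RNA were counted, and overlap of sequence between members and partners was not tested.

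**Figure D1:**
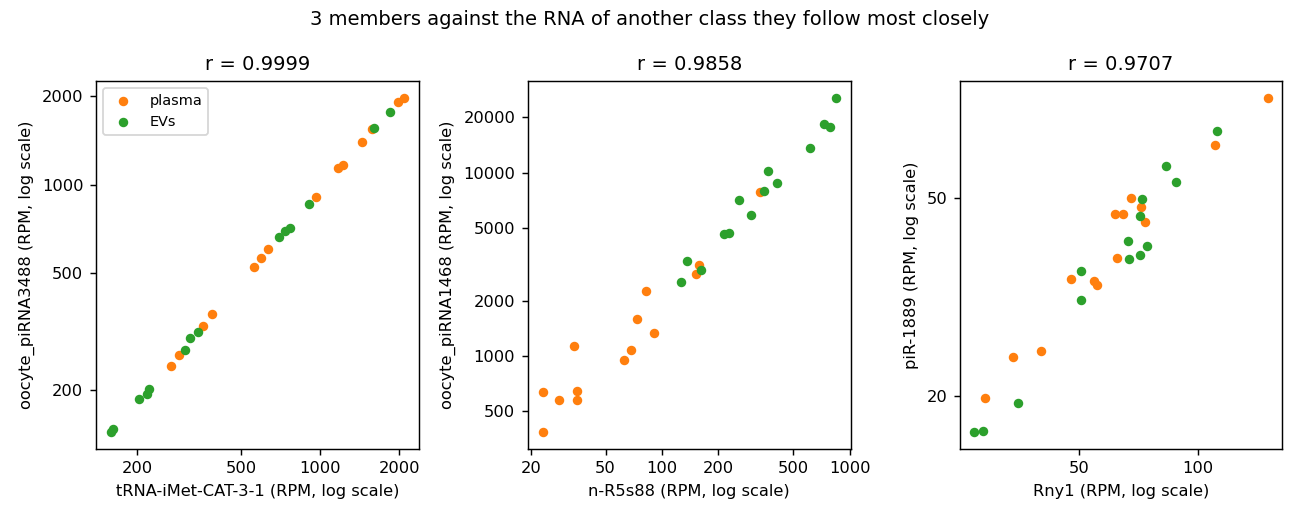
Level of 3 members (vertical, RPM on a log scale) against the RNA of another class they followed most closely (horizontal, RPM on a log scale) in 14 plasma libraries (orange) and 14 EV libraries (green), 1 point per library. oocyte_piRNA3488 lies on a line with tRNA-iMet-CAT-3-1 (r = 0.9999) with both fractions mixed along it, oocyte_piRNA1468 rises with n-R5s88 (r = 0.9858) with EVs at the upper end, and piR-1889 rises with Rny1 (r = 0.9707).

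Members also ran beside each other. No 2 rows had equal counts, but at r of 0.99 or more 69 members fell into 23 linked sets, leaving 131 unlinked. The largest sets had 7 members each. One of these was headed by oocyte_piRNA3732, a close follower of tRNA-Gly-GCC-3-1, and held entries that follow glycine and glutamate tRNAs. oocyte_piRNA978 and piR-515 formed a set of 2, as did oocyte_piRNA1468 with piR-1330 and piR-171 with piR-38. Linked members are not independent measurements, so the counts of members below overstate the number of separate RNAs.

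Set beside the class totals, the share of the tRNA class was lower and that of the rRNA class higher in EVs, while the share of the piRNA class did not pass the test. piRNA-annotated counts made up 9.14% of all counts in EVs and 8.47% in plasma, a mean difference within a mouse of 0.673 ± 1.96 percentage points (SD, n = 14), with EVs higher in 10 of 14 mice (exact two-sided sign-flip permutation test, p = 0.222, adjusted over the 3 classes p = 0.222). The tRNA class made up 32.1% in EVs and 61.5% in plasma, 29.4 ± 9.21 points lower in EVs, in 14 of 14 mice (exact permutation p = 0.000122, the smallest that 14 mice allow, adjusted p = 0.000183). The rRNA class went the other way, at 39.4% in EVs and 11.04% in plasma, 28.4 ± 9.85 points higher in EVs in 14 of 14 mice, with the same exact permutation p. In RPM the summed piRNA class was 23208 ± 36679 RPM higher in EVs (SD, n = 14, 10 of 14 mice, exact permutation p = 0.0323), a call that rested on the 3 mice that stood apart. Without them it was 13791 ± 29170.3 RPM (SD, n = 11, 7 of 11 mice, exact permutation p = 0.143). Without the same mice the 3 differences in share were 0.286, -28.8 and 28.9 points. A share can move because its own RNA or that of another class changed, and fewer vesicles cannot be told apart from less RNA in each.

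**Figure D2:**
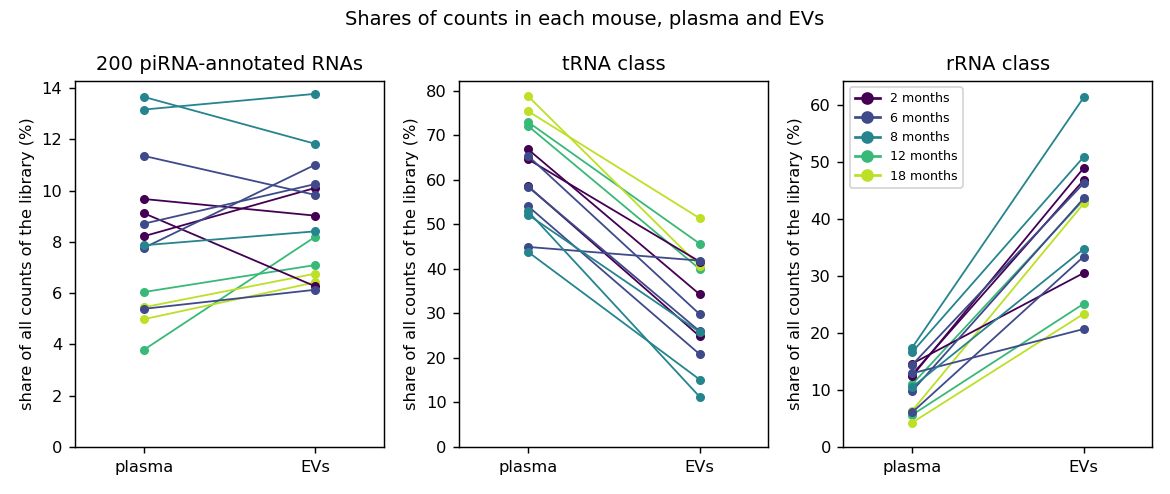
Share of all counts (vertical, percent) of the 200 members, the tRNA class and the rRNA class in plasma and EVs, with 1 line per mouse coloured by age. Lines for the 200 members run in both directions, those for tRNAs fall from plasma to EVs in all 14 mice and those for rRNAs rise in all 14.

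Across mice, the summed piRNA class rose and fell with the rRNA class in RPM, while its correlation with the tRNA class did not pass the test. The difference between the 2 correlations was not tested. Against the rRNA total, r was 0.898 in plasma and 0.873 in EVs, and Spearman's rho was 0.833 and 0.890 (permutation tests with 100000 resamples, n = 14, Benjamini-Hochberg adjusted over 8 values, p = 0.00016 for both r and 0.00068 and 0.000213 for rho). Leaving out the 2 libraries farthest from the median gave r of 0.916 and 0.843, and leaving out the 3 mice that stood apart 0.892 and 0.833. Against the tRNA total, r was 0.354 in plasma and 0.477 in EVs (permutation p = 0.215 and 0.0848, adjusted 0.287 and 0.136), with rho of 0.253 and 0.213. All totals in RPM share 1 scaling number per library. In shares of counts the r with the rRNA class was 0.857 in plasma and 0.356 in EVs, and that with the tRNA class became -0.853 and -0.649, shares being bound to sum to a whole.

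The rho of single members with the same class totals varied widely. Over the 28 libraries its median was 0.13 with the tRNA class total, with a range from -0.73 to 0.97. With the rRNA class total the median was 0.32 and the range -0.91 to 0.97. The rho was higher with the tRNA class total for 90 members and with the rRNA class total for 110. Every RNA falls on 1 side or the other, so this split alone shows no likeness to either class. For the 45 members like a tRNA, the median rho with the tRNA class was 0.916 in plasma and in EVs, against 0.301 and 0.310 with the rRNA class. For the 7 members like a 5S rRNA, the median rho with the rRNA class was 0.859 in plasma and 0.899 in EVs, against 0.231 and 0.301 with the tRNA class. The 140 members below r of 0.95 had medians of 0.525 and 0.523 with the rRNA class and 0.253 and 0.209 with the tRNA class. The 45 and the 7 were picked by their correlation with single tRNA or 5S rRNA rows over the same 28 libraries. A high rho with the total of that class is therefore largely set by the choice, and these medians are a description.

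Between the fractions, more members were called higher in EVs than in plasma under TMM scaling. With edgeR's quasi-likelihood test over all 28 libraries and age as a covariate, 88 of the 200 were higher in EVs and 3 were higher in plasma at a Benjamini-Hochberg adjusted p under 0.05 over all RNAs tested. This fit did not pair the fractions by mouse. Of all 22323 RNAs tested, 10.0% were higher in EVs and 7.08% were higher in plasma. The median log2 fold change of the members was 0.76, and it was -0.02 over all RNAs. The other 1112 piRNA rows tested, all of lower abundance, did not share this, with 131 (11.8%) higher in EVs, 190 (17.1%) higher in plasma and a median of -0.20. With a filter of 10 RPM, nearer the members in level, 1108 of 5093 RNAs were higher in EVs and 780 in plasma. The members then had 90 and 10. The part of abundance in these contrasts was not tested. Among other classes, 164 of 202 rRNAs tested were higher in EVs and 6 in plasma, 123 and 18 of 304 snoRNAs, 79 and 17 of 408 snRNAs, and 20 and 10 of 195 misc_RNAs. MicroRNAs and scaRNAs also leaned to EVs, with 121 and 9 of 333 microRNAs (median 0.80) and 11 and 0 of 22 scaRNAs (median 1.07). Of 407 tRNAs 23 and 4 were called, with a median of -0.19. Circular RNAs had 888 and 803 of 11747 (median -0.04) and long non-coding RNAs 586 and 521 of 7393 (median -0.02).

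How many members were called higher in plasma depended on the scaling and the pairing. TMM, a scaling that sets most RNAs equal between libraries, gave the 3 above in the fit without the pairing by mouse. Scaling by the authors' RPM number shifted the median of all RNAs to -0.45 on the log2 scale and gave 69 members higher in EVs and 41 in plasma (4.52% and 19.5% of all RNAs). TMM over microRNAs alone shifted it to -0.66 and gave 61 and 60 (3.44% and 26.6%). With TMM and the mouse as a block, which uses that both fractions came from 1 animal, there were 110 and 41 (11.1% and 7.53%). Called in the same direction under TMM and all 25 alternatives tried were 60 members higher in EVs and 1 higher in plasma, oocyte_piRNA2771, against 9.35% and 5.89% of the 5092 RNAs tested in every one of these fits. In RPM without any model, 42 members were higher in EVs in all 14 mice (1.48% of all RNAs) and 42 were higher in plasma in all 14 (4.33%). In 2 members, oocyte_piRNA569 and oocyte_piRNA1369, every EV library lay above every plasma library (0.0672% of all RNAs), and in none was it the reverse (0.412%).

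Partner and direction went together. Of the 45 members like a tRNA at r of 0.95, none passed the test in either direction under TMM without the mouse as a block. Their log2 fold changes ran from -1.18 to 0.06 with a median of -0.50. Of these 45, 33 were called higher in plasma with TMM and the mouse as a block. With RPM scaling 30 were, and there their median was -1.004 against -0.45 for all RNAs. None of the 45 was higher in EVs in more than 2 of the 14 mice. The 7 members like a 5S rRNA were all called higher in EVs under TMM, under RPM scaling and with the block, with log2 fold changes from 2.04 to 3.41 and a median of 3.09, in 13 or 14 mice each. Of the 29 members whose closest RNA was any rRNA, 27 were higher in EVs (median 2.04), and of the 56 closest to a tRNA 1 was (median -0.50). By name, 49 of the 139 oocyte_piRNA members and 39 of the 61 piR members were higher in EVs, with medians of 0.33 and 1.44. Partner and fold change come from the same 28 libraries, so this grouping is a description and was not tested.

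**Figure D3:**
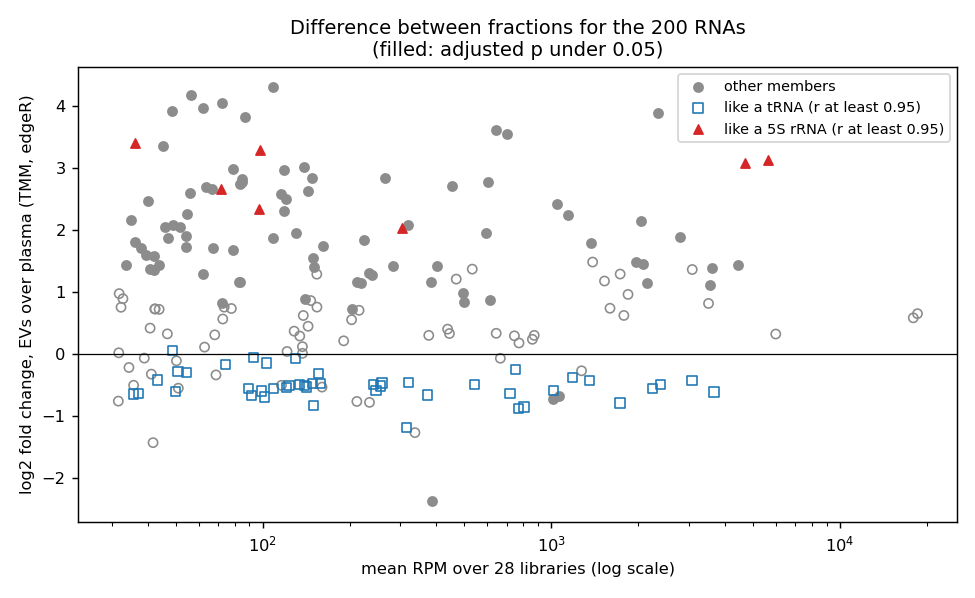
Log2 fold change of EVs over plasma (vertical, edgeR with TMM scaling) against mean RPM over 28 libraries (horizontal, log scale) for the 200 members, filled where the adjusted p is under 0.05. The 45 members like a tRNA (blue squares) lie between -1.18 and 0.06, the 7 like a 5S rRNA (red triangles) between 2.04 and 3.41, and the other members (grey) spread from -2.37 to 4.31.

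The members with the smallest p for a higher level in EVs were mostly of middle or low abundance. oocyte_piRNA1369 had 63.6, 136 and 200.5 RPM in EVs and 12.0, 31.1 and 46.2 RPM in plasma at the lowest, median and highest of 14 libraries. The 2 groups did not overlap, and the log2 fold change was 2.83 (SE 0.32, adjusted p = 1.1e-07). oocyte_piRNA569 followed the 5S rRNA gene n-R5s195 (r = 0.9684) and had 71.4, 142 and 351 RPM in EVs and 6.45, 24.4 and 54.2 RPM in plasma. These groups did not overlap either, with a log2 fold change of 3.30 (SE 0.39, adjusted p = 3.0e-07). piR-1963, the most abundant of the 6 at rank 13, had 1668, 2991 and 7833 RPM in EVs and 572, 1368 and 2999 RPM in plasma. Its groups overlapped, yet EVs were higher in 14 of 14 mice with a log2 fold change of 1.89 (SE 0.26, adjusted p = 4.5e-06).

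The other 3 of the 6 with the smallest p were higher in EVs in all 14 mice as well. oocyte_piRNA1893 had 471, 1123 and 4111 RPM in EVs and 151, 349.7 and 965 RPM in plasma, a log2 fold change of 2.42 (SE 0.30, adjusted p = 9.2e-07). oocyte_piRNA2080, outside the top 200 of plasma alone, had 8.59, 74.9 and 151 RPM in EVs and 0.658, 11.4 and 29.0 RPM in plasma, a log2 fold change of 3.36 (SE 0.48, adjusted p = 7.5e-06). oocyte_piRNA2278, which followed the 5S rRNA gene n-R5s210, had 21.3, 53.6 and 139 RPM in EVs and 0, 6.63 and 32.0 RPM in plasma, a log2 fold change of 3.41 (SE 0.50, adjusted p = 1.1e-05). Of these 6 RNAs 2 followed a 5S rRNA, 2 a circular RNA, 1 a long non-coding RNA and 1 a microRNA most closely. All 6 passed the threshold under all 25 alternatives.

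Higher in plasma under TMM without the mouse as a block were oocyte_piRNA2771, piR-171 and piR-38. oocyte_piRNA2771 had 266, 496 and 1391 RPM in plasma and 19.0, 57.9 and 403 RPM in EVs. It was higher in plasma in 14 of 14 mice, with a log2 fold change of -2.37 (SE 0.33, adjusted p = 5.7e-06). piR-171 had 693, 1192 and 2393 RPM in plasma and 149, 476 and 1362 RPM in EVs, with a log2 fold change of -0.71 (SE 0.24, adjusted p = 0.0363). piR-38, linked to piR-171 at r = 0.9988, had 719, 1252 and 2525 RPM in plasma and 157, 509 and 1385 RPM in EVs, with a log2 fold change of -0.68 (SE 0.23, adjusted p = 0.0436). Both ranges overlapped widely between the fractions although plasma was higher in all 14 mice. Their calls were weak, being lost in 7 and 11 of 14 fits that left out 1 mouse.

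The 10 most abundant members did not behave alike. oocyte_piRNA978 had 2598, 12186 and 48014 RPM in EVs and 1834, 16152 and 59758 RPM in plasma, and piR-515 had 1952, 10986 and 46104 RPM in EVs and 1703, 15987 and 59493 RPM in plasma. Their log2 fold changes of 0.66 (SE 0.53, adjusted p = 0.472) and 0.59 (SE 0.54, adjusted p = 0.538) did not pass the test, and each was higher in EVs in 7 of 14 mice. piR-1093, with 2495, 5255 and 12691 RPM in EVs and 1988, 6354 and 11267 RPM in plasma, also did not pass, at 0.33 (SE 0.30, adjusted p = 0.542). These ranges overlapped almost entirely.

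The 5S-like pair was set apart from them. oocyte_piRNA1468 had 2518, 7522 and 25617 RPM in EVs and 382, 1099 and 7783 RPM in plasma, a log2 fold change of 3.13 (SE 0.57, adjusted p = 1.9e-04). piR-1330 had 2123, 6411 and 21727 RPM in EVs and 293, 969 and 7239.6 RPM in plasma, a log2 fold change of 3.09 (SE 0.57, adjusted p = 2.4e-04). Both were higher in EVs in 14 of 14 mice, and in plasma the highest library of each, replicate 2 at 12 months with 7783 and 7239.6 RPM, lay well above the next (3108 and 2399 RPM). That library belongs to the mice that stood apart, and both calls held under all 25 alternatives, leaving out those mice included. Their partner n-R5s88 was higher in EVs too, with 126, 323 and 845 RPM against 23.0, 65.4 and 335 RPM and a log2 fold change of 2.92 (SE 0.52, adjusted p = 1.3e-04).

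The next abundant members were moderately higher in EVs under TMM. piR-1078 had 2434, 5672 and 14250.1 RPM in EVs and 531, 3555 and 7557 RPM in plasma, a log2 fold change of 1.44 (SE 0.44, adjusted p = 0.02) with EVs higher in 13 of 14 mice. oocyte_piRNA3187 had 1554, 2897 and 13290.2 RPM in EVs and 598, 2022 and 6902 RPM in plasma, a log2 fold change of 1.39 (SE 0.42, adjusted p = 0.0202) with EVs higher in 12 mice. piR-2808 had 2474, 3591 and 6823 RPM in EVs and 1362, 2629.7 and 5489.9 RPM in plasma, a log2 fold change of 1.11 (SE 0.34, adjusted p = 0.0219) with EVs higher in 13 mice. None of the 3 passed with RPM scaling (log2 fold changes 0.83, 0.77 and 0.51, adjusted p = 0.0636, 0.0861 and 0.106), and the call for piR-2808 was also lost in 2 and that for oocyte_piRNA3187 in 1 of 14 fits that left out 1 mouse. oocyte_piRNA1350, with 1022, 3223 and 8404 RPM in EVs and 369, 2747 and 10395 RPM in plasma, had a log2 fold change of 0.82 (SE 0.49, adjusted p = 0.293).

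The seventh most abundant, oocyte_piRNA1479, was the highest of the tRNA-like members and ran beside tRNA-Gly-GCC-3-1, a glycine tRNA (r = 0.9690). It had 1746, 4950.2 and 10858 RPM in plasma and 663, 1585 and 5020.2 RPM in EVs, and plasma was higher in 14 of 14 mice. Under TMM its log2 fold change was -0.61 (SE 0.36, adjusted p = 0.291). With RPM scaling it was -1.13 (adjusted p = 0.00683), and with the mouse as a block -0.63 (adjusted p = 0.0175), both past the threshold. A call for this RNA thus turned on the pairing and the scaling, its direction on neither.

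**Figure D4:**
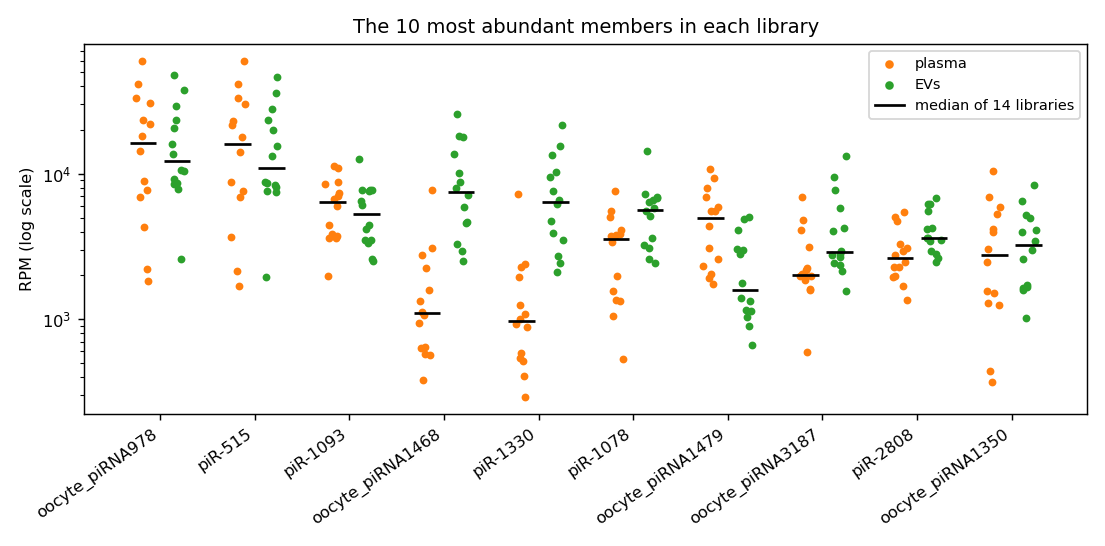
RPM (vertical, log scale) of the 10 most abundant members in 14 plasma libraries (orange) and 14 EV libraries (green), 1 point per library, with the median as a line. oocyte_piRNA1468 and piR-1330 are higher in EVs with plasma medians of 1099 and 969 RPM against 7522 and 6411 RPM, oocyte_piRNA1479 is higher in plasma in all 14 mice, and oocyte_piRNA978 and piR-515 overlap between the fractions.

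Members that ran close to a named small RNA were not alike between the fractions. piR-1889, beside the Y1 RNA, had 16.9, 39.2 and 68.2 RPM in EVs and 19.8, 41.4 and 79.7 RPM in plasma, a log2 fold change of 0.42 (SE 0.26, adjusted p = 0.313), and Rny1 itself had 0.48 (SE 0.27, adjusted p = 0.258). Neither of these passed the test. piR-1686, beside mmu-miR-6240, had 12.6, 34.2 and 319 RPM in EVs and 3.32, 15.1 and 77.9 RPM in plasma and was higher in EVs at 1.72 (SE 0.53, adjusted p = 0.0241), a call lost with RPM scaling (1.10, adjusted p = 0.0611).

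The study was built to find small RNAs that change with age, and for the members no age trend passed the test. With edgeR and age in months as a linear term, 0 of the 200 members were called in plasma in either direction, where 0.0139% of all 21632 RNAs rose and 0% fell. In EVs 0 members and 0% of 18570 RNAs were called in either direction, and for the difference between the 2 trends 0 members and 0% of 22323 RNAs. At an unadjusted p under 0.05, 13 members had a positive and 4 a negative slope in plasma (4.19% and 3.10% of all RNAs), 12 and 0 in EVs (4.46% and 1.34%), and 0 and 4 for the difference (1.42% and 2.58%). These counts turned on single mice. In plasma they became 3 and 20 without 12-month replicate 2 (2.53% and 3.28% of all RNAs), and in EVs the 12 and 0 became 40 and 0 without 2-month replicate 3 (6.10% and 1.76%) and 6 and 0 without 18-month replicate 2 (3.70% and 0.919%). Members with a positive slope in plasma were also 7 without 2-month replicate 2 (625 of 21419 RNAs) or 6-month replicate 1 (777 of 21041). Without 6-month replicate 4 they were 8 (836 of 21208). Members with a negative slope were 0 to 2 without 2-month replicate 1 or 3, 12-month replicate 1 or 18-month replicate 1. In these fits 464 to 846 of all RNAs had a negative slope. Such members were 9 to 14 without 6-month replicate 4, 8-month replicate 1 or 18-month replicate 2, against 749 to 875 of all RNAs. The 3 mice that stood apart include both 12-month mice, so leaving them out also removed that age. It gave 3 positive and 12 negative slopes in plasma (630 and 548 of 20241 RNAs). For EVs it gave 9 positive and 0 negative slopes (539 and 173 of 16653). For the difference the 4 negative slopes became 0 without 12-month replicate 2 (457 of 22139 RNAs) and 10 without 18-month replicate 2 (572 of 22144). With the mouse as a block 30 members had a positive and 0 a negative difference (3.36% and 2.76% of all RNAs). With the block and RPM scaling these were 27 and 2 (1.60% and 5.12%), and none of these members passed after adjustment. DESeq2 called 1 rising member in plasma, piR-25256, and none in EVs or for the difference, against 0.153% of all RNAs rising and 0.0370% falling in plasma, 0.0969% and 0% in EVs and 0.00448% and 0.0224% for the difference. With no filter on low values edgeR called 6 members rising and 3 falling in plasma (0.557% and 0.301% of all RNAs), 0 and 0 in EVs (0.0284% and 0.0418%) and 0 and 1 for the difference (0.00995% and 0.0472%), the 1 being piR-25256. Without the 3 mice that stood apart edgeR called no member and no other RNA in any of these trends. The median slope of the members was -0.01 per month on the log2 scale in plasma and 0.03 in EVs.

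By the measure that the study used for ageing RNAs, Spearman's rho of the level with age past 0.5 in size, few members stood out. In plasma 2 members had a rho above 0.5 (5.98% of all RNAs) and 9 a rho below -0.5 (2.09%), and in EVs 3 and 0 (1.59% and 1.20%). The 2 above 0.5 in plasma were oocyte_piRNA2431 and oocyte_piRNA445, and the 3 in EVs were oocyte_piRNA2697, oocyte_piRNA2729 and oocyte_piRNA3021. Among the 9 that were lower at older ages in plasma were the 2 most abundant members, oocyte_piRNA978 (rho = -0.52) and piR-515 (rho = -0.52), oocyte_piRNA1350 and piR-1889. The group of 9 is small, and leaving out 1 mouse at a time gave 7 (6.52% of all RNAs, without 12-month replicate 1) to 30 (10.4%, without 2-month replicate 1) members past 0.5 in size in plasma and 0 (2.75%, without 12-month replicate 2) to 15 (5.44%, without 2-month replicate 3) in EVs. The median rho of the members was -0.04 in plasma and 0.08 in EVs, against 0.13 and -0.06 over all RNAs.

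The level of the most abundant member by age shows the spread behind these values. oocyte_piRNA978 had 31732 ± 8966, 13989 ± 8672, 33939.5 ± 25460.2, 3243 ± 1480.4 and 7364 ± 555 RPM in plasma at 2, 6, 8, 12 and 18 months (mean ± SD, n = 3, 4, 3, 2 and 2), a slope of -0.16 per month (SE 0.08, unadjusted p = 0.0552, adjusted p = 0.691) by edgeR. In EVs it had 20023 ± 3807, 13446 ± 11344, 31447 ± 20436, 10563 ± 180.2 and 8526 ± 977 RPM at the same ages, a slope of -0.08 per month (SE 0.09, unadjusted p = 0.364, adjusted p = 0.985). The groups at 6 and 8 months were wide, with libraries from 1834 to 21818 and from 8854 to 59758 RPM in plasma and from 2598 to 29048 and from 8610.4 to 48014 RPM in EVs. Every 2-month library, at 23499.9 to 41286 RPM in plasma and 15967 to 23518 RPM in EVs, lay above every 12- and 18-month library of its fraction. Both 12-month mice are among those that stood apart, and without them this contrast rests on the 2 mice at 18 months.

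**Figure D5:**
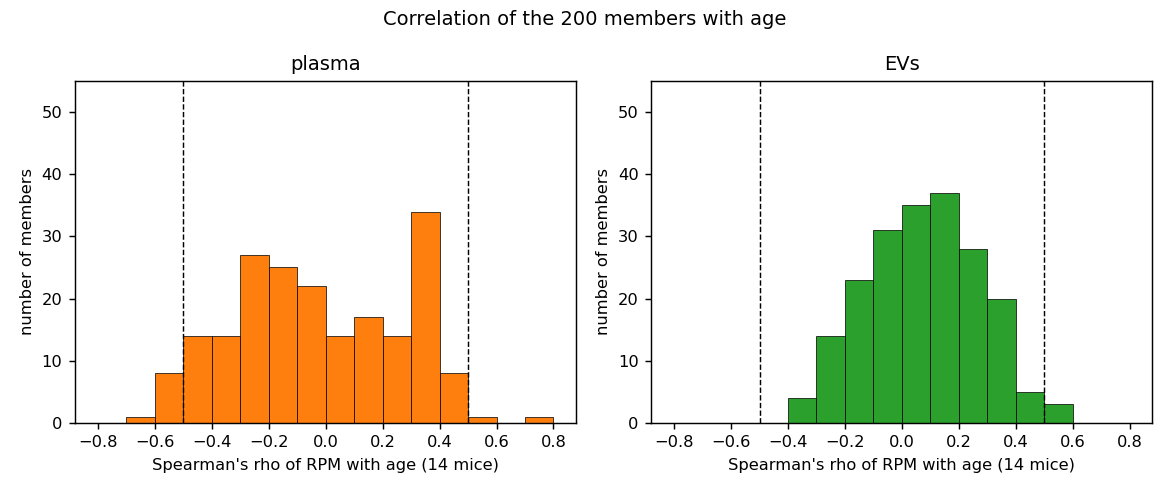
Number of members (vertical) by Spearman's rho of RPM with age (horizontal) in plasma (left) and EVs (right) over 14 mice, with dashed lines at -0.5 and 0.5. In plasma 2 members lie above 0.5 and 9 below -0.5, and in EVs 3 and 0.

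No tRNA-like member passed the test for age, and most had a rho with age above 0. Of the 45, 38 had a rho above 0 in plasma (median 0.34) and 43 in EVs (median 0.18). Over all RNAs the median rho was 0.13 and -0.06. The tRNA class leaned the same way. By edgeR, 146 of 407 tRNAs had a positive slope in plasma and 154 in EVs at an unadjusted p under 0.05. In each fraction 0 had a negative one, and none passed after adjustment. The 7 members like a 5S rRNA had a median rho of -0.32 in plasma and 0.04 in EVs, and the 140 other members below r of 0.95 had -0.12 and 0.04. Linked members repeat 1 pattern, so 38 of 45 is not 38 separate observations. Class totals were tested as well. In plasma the piRNA share of counts had an r of -0.495 and a rho of -0.524 with age (permutation tests with 100000 resamples, n = 14, p = 0.0706 and 0.0569, adjusted over 12 values p = 0.212 for both), the rRNA share an r of -0.612 (permutation p = 0.0203, adjusted 0.212) and the tRNA share an r of 0.546 (permutation p = 0.0429, adjusted 0.212), and without the 2 mice farthest from the median age these r were -0.279, -0.305 and 0.150. No class share passed the test after adjustment in either fraction.

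The members with the smallest p for age in EVs were the 4 that follow cysteine tRNAs, and piR-125098. oocyte_piRNA2941 had 20.3 ± 9.19, 10.6 ± 2.16, 7.82 ± 3.40, 28.7 ± 1.62 and 67.1 ± 25.2 RPM in EVs at 2, 6, 8, 12 and 18 months, a slope of 0.12 per month (SE 0.04, unadjusted p = 0.00367, adjusted p = 0.645). In plasma it had 42.6 ± 22.5, 26.4 ± 17.8, 23.1 ± 8.74, 56.6 ± 13.9 and 132 ± 30.1 RPM, a slope of 0.09 per month (SE 0.03, unadjusted p = 0.0148, adjusted p = 0.642). Both 18-month mice were thus high in plasma, while the other ages overlapped. oocyte_piRNA1710, oocyte_piRNA661 and oocyte_piRNA360 had slopes of 0.12, 0.12 and 0.12 per month in EVs, with edgeR adjusted p of 0.645, 0.645 and 0.663. All 4 follow cysteine tRNAs at r of 0.994 or more and count as 1 pattern.

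piR-125098, whose closest RNA was tRNA-Leu-TAG-2-1 (r = 0.9463), had a small p in both fractions. Its level in plasma was 32.1 ± 8.43, 33.1 ± 12.98, 31.5 ± 3.76, 45.4 ± 29.4 and 121 ± 90.1 RPM at the 5 ages, a slope of 0.11 per month (SE 0.03, unadjusted p = 0.00244, adjusted p = 0.512). In EVs it was 25.8 ± 12.0, 24.7 ± 10.1, 13.2 ± 0.940, 48.5 ± 3.32 and 60.4 ± 33.7 RPM, a slope of 0.10 per month (SE 0.03, unadjusted p = 0.00603, adjusted p = 0.664). Neither passed after adjustment by edgeR.

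A few of the largest slopes in plasma turned on 1 library. piR-25256 had 5.19, 18.0 and 623 RPM in plasma, and a slope of 0.34 per month (SE 0.12, unadjusted p = 0.00937, adjusted p = 0.628). Its highest value was that of replicate 2 at 12 months, and the next highest was 163 RPM. In that library oocyte_piRNA2795 also reached 743 RPM (next 139) and oocyte_piRNA445 618 RPM (next 133). These 3 had the smallest p for a trend that differs between the fractions, with slopes in EVs minus plasma of -0.34, -0.29 and -0.19 per month, an unadjusted p of 0.00852, 0.0197 and 0.0295, and an edgeR adjusted p of 1.00, 1.00 and 1.00. That plasma library is of 1 of the mice that stood apart, and without that mouse the plasma slopes of piR-25256 and oocyte_piRNA2795 were 0.10 and 0.06 per month, and without all 3 such mice 0.02 and 0.01.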

How the data were processed

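The authors deposited estimated counts per RNA and these values again as an RPM signal, with a single scaling number for each library. The quantity behind that number is not given in the sources, and neither are the aligner and annotation for this cohort. The submitters' processing notes name mm10 and R 4.0.4. Values of piRNA rows were whole, and counts were rounded where they were not. RNAs with at least 1 RPM in at least 2 of the 14 libraries of a fraction were tested with edgeR 4.0.16 (TMM, quasi-likelihood, limma 3.58.1, R 4.3.3) and adjusted by Benjamini-Hochberg over all RNAs tested, at 0.05. DESeq2 1.42.0 was an alternative. Class shares were tested by exact sign flips (16384) over mice. Other steps used scipy 1.17.1, pandas 2.3.3 and numpy 2.4.6 in Python 3.11.15, and figures matplotlib 3.10.9. The main edgeR fits (TMM, no block by mouse) were also run on simulated counts, which were drawn without an effect of the mouse. The alternative fits were not.

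Groups come from the labels. Libraries pair because both fractions come from 1 animal. Replicates 2 and 3 at 2 months share a plasma code and were paired by number only. Deviations from age means correlated within a mouse at 0.0288 to 0.772, above 0.1 in 13 of 14. The labels do not say that the 2 plasma libraries with the shared code are from separate animals, and tests over 14 mice count them as such. Without these 2 mice 81 members were called higher in EVs and 3 in plasma by the main edgeR fit. Of all 22058 RNAs, 1674 and 1260 were. The 200 members, the lists and the tests were chosen with earlier results of these data known. RNAs are named by rule, as the 10 with the highest mean, the 6 smallest p per direction between fractions, the 5 smallest p for age per fraction, the 3 smallest p for the interaction, the 3 on each side of the limit and the 2 closest to each other class. Other RNAs named were chosen after their values were seen. Depth sets the precision, and 1 count in the shallowest library is worth 1.70 RPM. All columns were used.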

Additional observations from a re-analysis of the deposited data

Results flagged for a closer look

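In the only age group of 4 mice, at 6 months, the values of the named members were searched for a library far from the other 3, by the gap to its nearest neighbour over the whole range against Dixon's 95% limit. Of 92 groups 8 exceeded it, and chance alone gives about 1 in 20. Replicate 1, whose plasma library is the shallowest of all with 928651 counts, was the high library in 6 of the 8. In plasma it stood out for piR-1078 (3742 RPM against 1325 to 1552 in the other 3, gap 0.906), piR-1686 (37.5 RPM against 9.56 to 14.3, gap 0.831), piR-972 (136 RPM against 48.1 to 61.9, gap 0.844) and oocyte_piRNA1572 (451 RPM against 321 to 337, gap 0.875). In EVs it stood out for oocyte_piRNA3187 (4263 RPM against 2776 to 2966, gap 0.872) and piR-972 (212 RPM against 82.1 to 90.2, gap 0.937). Replicate 4, a mouse that stood apart, was high in plasma for oocyte_piRNA2941 (53.1 RPM against 15.7 to 18.7, gap 0.919) and oocyte_piRNA1710 (54.6 RPM against 16.3 to 18.9, gap 0.931), which both follow tRNA-Cys-GCA-24-1 and count as 1 pattern. The part of depth in these values was not tested.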

How the results depend on the processing

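The 88 members higher in EVs stayed within 1.5 times that number under each alternative (61 to 110; 80 to 101 without 1 mouse). The 3 higher in plasma became 41 with RPM scaling (19.5% of all RNAs), 60 with TMM over microRNAs (26.6%) and 10 with a filter of 10 RPM (780 of 5093 RNAs). They became 41 with the mouse as a replicate block (7.53%) and 60 with that block and RPM scaling (6977 of 22323). Without the 3 mice that stood apart there was 1 (1232 of 20826). The last 2 settings were chosen after seeing the data. Leaving out 1 mouse gave 1 to 4 members (1319 to 1505 of all RNAs). The count was 1 without 2-month replicate 2, 6-month replicate 3, 8-month replicate 1, 12-month replicate 1 or either 18-month mouse. The piRNA class difference of 23208 RPM (EVs minus plasma) passed its test, unlike that of 13791 RPM without the 3 mice that stood apart and that in shares, which ran from 0.385 to 0.945 points without 1 mouse (tRNA -31.5 to -28.5, rRNA 27.2 to 30.0). Rising members in plasma became 1 with DESeq2 (0.153% of all RNAs) and 6 with no filter (0.557%), and falling ones 3 with no filter (0.301%). With no filter 1 member, piR-25256, had a negative difference between the trends (0.0472%). The 11 members with rho past 0.5 in size in plasma became 24 in shares of counts and 7 (without 12-month replicate 1) to 30 (without 2-month replicate 1), and the 3 in EVs 1 with TMM values and 0 (without 12-month replicate 2) to 15 (without 2-month replicate 3). For the piRNA share with age, rho in EVs of -0.16 turned to 0.103 in RPM, and in plasma it ran from -0.636 to -0.418, past an unadjusted 0.05 without 6-month replicates 3 or 4 or 8-month replicates 1 or 3. For the rRNA share in plasma it ran from -0.568 to -0.327, past it without 8-month replicates 1 or 3. In shares of counts the piRNA class r with tRNAs was -0.853 in plasma and -0.649 in EVs, and with rRNAs in EVs 0.356. Within EVs alone 99 members reached r of 0.95 with their closest RNA, from 60. The cause of these shifts was not tested. For named members, 1056 of 1156 alternatives kept direction and side of the threshold, 40 lost and 26 gained a call, 34 moved a value, and none reversed a call.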

Other observations

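Small non-coding RNAs that are known to be cut into fragments gave a mixed picture beside the members. Rny3, the Y3 RNA, was higher in EVs with a log2 fold change of 1.81 (SE 0.30, edgeR adjusted p = 6.9e-05) and Vaultrc5, a vault RNA, with 1.81 (SE 0.26, edgeR adjusted p = 8.6e-06). Rn7sk, the 7SK RNA that restrains transcription elongation, was also higher, with 1.41 (SE 0.38, edgeR adjusted p = 0.00853). Rn7s1, a 7SL RNA of the signal recognition particle, did not pass the test at 0.58 (SE 0.35, edgeR adjusted p = 0.3), and Rn7s2, a near-identical copy, had equal counts in all 28 libraries. The closest RNAs of members with long partners, Gm50011 for piR-9248 (r = 0.9631, 7.26 to 53.1% of its counts) and mmu_circ_0013603 for piR-20430 (r = 0.9667, 30.7 to 77.6%), held more counts than the members did. piR-9248 was higher in EVs with a log2 fold change of 2.05 (SE 0.53, adjusted p = 0.00595) and piR-20430 with 2.17 (SE 0.49, adjusted p = 0.002), both by edgeR.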
